A study of Mus musculus with 9 samples.

Results

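The proteasome is the protease complex that degrades ubiquitin-tagged proteins, and its subunits and assembly factors are encoded by the Psm genes. Rows of the deposited expression table were taken when the name began with Psma to Psmg followed by a number, leaving out Psmb8, Psmb9 and Psmb10, the catalytic subunits of the immunoproteasome. The rule found 45 of 12339 genes, of which 43 are proteasome genes. The other 2 match by spelling only: Psmc3ip is a recombination factor and Psme2b is a copy of Psme2. The 43 genes fall into 14 of the 20S core, 17 of the 19S regulatory particle, 7 assembly factors and 5 activators or inhibitors. All 43 passed the filter on low reads.

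RNA was measured in mouse lung tumour cells carrying GFP (KP-GFP, strain C57BL/6) that had been grown as spheroids for 7 days and then sorted for GFP. There were 3 groups of 3 libraries: tumour cells grown with TRMs, which are resident macrophages of the lung (alveolar macrophages), with bone-marrow monocytes, or alone. Each spheroid began with 2500 tumour cells, to which 5000 TRMs or monocytes were added in the co-cultures. For each condition 32 spheroids were pooled before sorting, and since no label describes replicates as separate cultures, the p-values cover the spread of these libraries alone, which may be technical. All libraries carry the same KP-GFP label. The comparisons ask how the added cells bear on RNA levels in the tumour cells.

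In the 20S core, a ring of alpha subunits (Psma) gates each end of a barrel and the rings of beta subunits (Psmb) between them carry the proteolytic sites. The 19S particle sits on the barrel end: its base holds a ring of ATPases (Psmc) that unfold substrates, and its lid removes ubiquitin chains. Dedicated chaperones (Psmg, and Psmd5, Psmd9 and Psmd10) help to build both parts, and when proteasome activity is limiting the transcription factor Nfe2l1 (NRF1) is known to raise the subunit genes together, through antioxidant response elements in their promoters.

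Libraries held 16001895 to 25240220 reads in the TRM co-culture, 18381707 to 24037053 in the monocyte co-culture and 21341370 to 32771448 for cells alone. Values below are the deposited signal, in CPM (reads scaled to a common library size). On the first principal component of all genes (35.93% of variance), cells alone lay between 43.64 and 81.42 and the monocyte libraries between -52.11 and -30.51. Replicate 1 of the TRM co-culture lay at 13.25 there, and its replicates 2 and 3 at -26.77 and -38.48. On the second principal component (20.85% of variance), replicate 3 of the monocyte co-culture lay at -75.29 and the other 8 libraries between -33.96 and 50.28. Of 9 epithelial markers listed for the labelled tumour cell type, Nkx2-1 was not in the table. The other 8 had a summed signal of 15234 to 19092 with TRMs, 10431 to 16404 with monocytes and 15159 to 16976 alone. Of these 8, Cldn4 was called lower with TRMs, and Cdh1, Cldn4 and Cldn7 with monocytes. Of 20 macrophage and monocyte markers, the 13 in the table summed to 176 to 321 with TRMs, 186 to 252 with monocytes and 162 to 248 alone. Cd14 was the largest part of every sum, at 84.3 to 202 with TRMs, 95.7 to 166 with monocytes and 105 to 213 alone. The sums can therefore hide changes of the other markers. Against cells alone 2 of the 13 were called higher with TRMs and none lower, and with monocytes 2 were higher and 3 lower. The higher ones were Mrc1 and F13a1 in each comparison, and those lower with monocytes were Ptprc, Siglecf and Chil3. Mrc1 lay between 22.4 and 39.8 with TRMs, 34.6 and 47.8 with monocytes, and 4.98 and 5.37 alone. F13a1 lay between 9.67 and 17.3 with TRMs, 7.21 and 17.0 with monocytes, and 0.747 and 1.31 alone. Siglecf, a marker of alveolar macrophages, lay between 0.142 and 0.594 with TRMs, 0.027 and 0.189 with monocytes, and 1.05 and 1.79 alone. Chil3 lay between 0.796 and 7.92 with TRMs, 0.314 and 1.199 with monocytes, and 3.06 and 14.6 alone. Ptprc, which marks all leukocytes, lay between 0.501 and 4.47 with TRMs, 0.021 and 0.565 with monocytes, and 0.916 and 3.46 alone. In the monocyte co-culture, Ptprc had 0 reads in replicate 3 and Siglecf had 0 reads in replicate 1. The part of any other cells in the differences below was not tested. In bulk samples, fewer cells of a type and less RNA per cell cannot be told apart.

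With TRMs, 5 of the 43 proteasome genes were higher than alone and none was lower: Psma5 of the core and Psmc4, Psmd2, Psmd3 and Psmd13 of the 19S particle. That is 11.6% of the genes, against 10.2% of all 12326 genes tested that were called higher and 8.15% called lower, so the count stood near the background. A call is a Benjamini-Hochberg adjusted p under 0.05 in limma, over all genes. With monocytes, 12 of 43 (27.9%) were higher and none lower, against 14.7% of all genes called higher and 12.7% lower: Psma5, Psmb2, Psmb5 and Psmb6 of the core, Psmc2, Psmc4, Psmd2, Psmd3, Psmd7, Psmd11 and Psmd13 of the 19S particle, and the assembly factor Psmd9. The median log2 fold change of the 43 genes was 0.18 with TRMs (36 above 0) and 0.28 with monocytes (38 above 0), beside -0.002 with TRMs and -0.016 with monocytes over all genes. Libraries did not overlap for 16 genes that were higher with TRMs and 1 lower (20.8% and 18.5% of all genes), and for 18 higher with monocytes and 1 lower (21.3% and 19.2%). Both comparisons use the same 3 libraries of cells alone.

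Counts of lower genes were 0 in both comparisons. At an unadjusted p under 0.05, limma gave 9 higher (20.9%) and 0 lower with TRMs, against 16.9% and 14.3% of all genes. With monocytes it gave 17 higher (39.5%) and 1 lower (Psme4), against 20.0% and 18.3% of all genes. edgeR on the recovered reads gave 4 higher and 0 lower with TRMs, against 9.83% of all genes higher, and 13 higher and 0 lower with monocytes, against 14.4%. In the authors' deposited table, at a false discovery rate under 0.05, 5 of the 43 genes were higher with TRMs, against 12.0% of all genes listed. With monocytes 10 were higher in the authors' deposited table, against 14.4%, and Psmb5 and Psmb6 were the calls of limma that it lacked. Leaving out 1 library in turn gave 1 to 6 higher genes with TRMs and 7 to 16 with monocytes. The low counts with TRMs were 2 without TRM replicate 1 (against 8.83% of all genes higher), 1 without TRM replicate 2 (5.43%) and 2 without TRM replicate 3 (7.46%). They were 1 without replicate 1 of cells alone (6.69%) and 1 without its replicate 3 (6.93%), and the count of 6 came without its replicate 2 (9.48%). With monocytes 7 were called without replicate 1 of cells alone (10.4% of all genes higher) and 7 without its replicate 3 (10.5%).

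**Figure D1:**
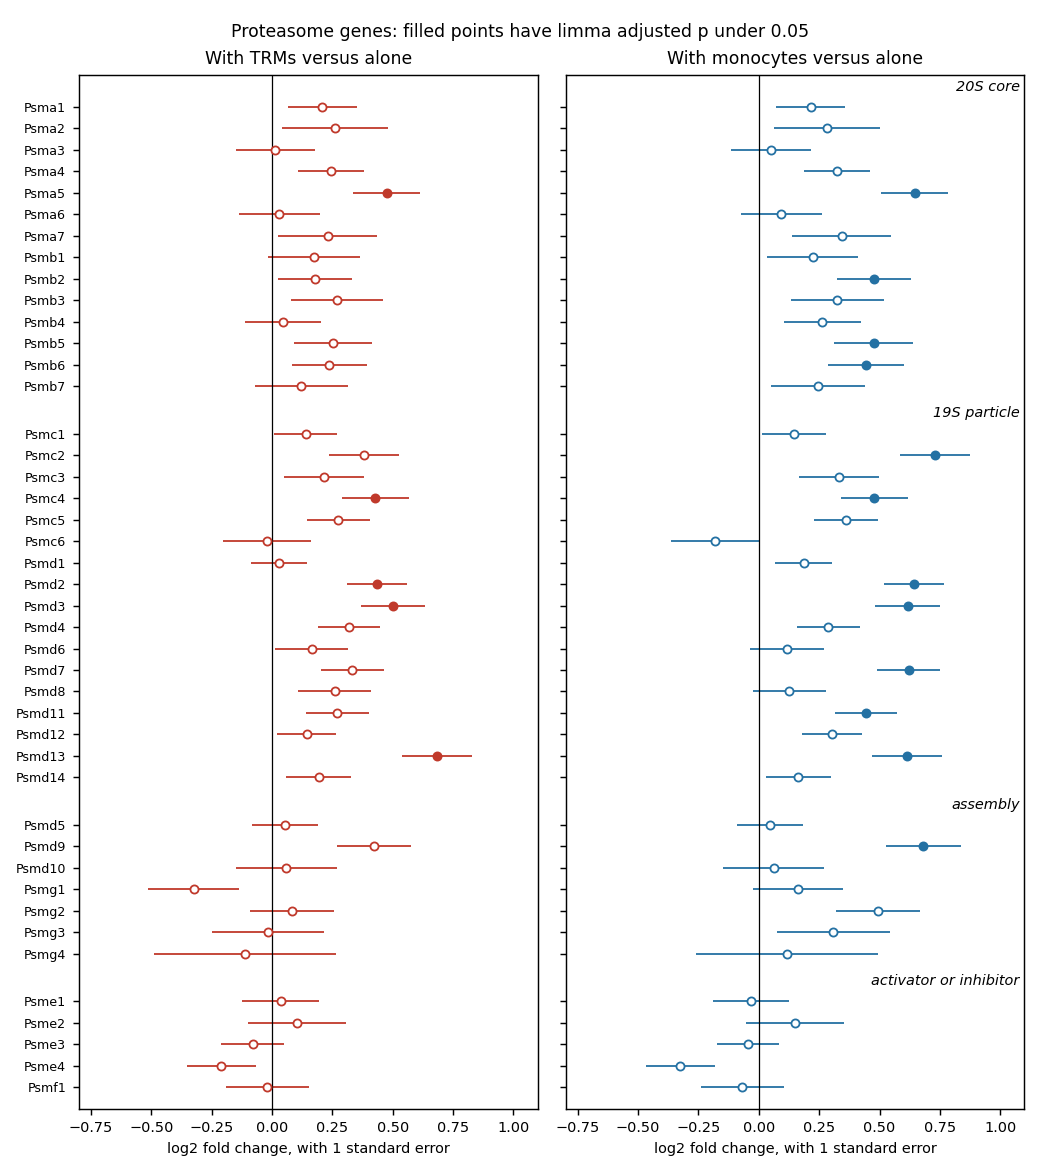
Log2 fold change of each of the 43 proteasome genes, with 1 standard error, for the TRM co-culture (left) and the monocyte co-culture (right) against cells alone; filled points have a limma adjusted p under 0.05. The 5 filled points at left and the 12 at right all lie above 0, most of them in the 19S particle.

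The 5 genes higher with TRMs had RefSeq promoter entries (250 bases before to 50 after the start, GRCm38.p6) for 4, and 36 of all 43 genes had one. The 120 bases before the start of Psmc4 and of Psmd2 are shown because these 19S base genes were higher in both comparisons. Their windows hold the GC box GGGCGG, in capitals on either strand. Windows that overlapped annotated exons by more than a set limit were left out.
Psmc4 (chr7:28050093-28050212, minus strand): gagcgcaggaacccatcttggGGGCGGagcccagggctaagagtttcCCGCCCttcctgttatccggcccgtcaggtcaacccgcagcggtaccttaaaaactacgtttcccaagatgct
Psmd2 (chr16:20651532-20651651, plus strand): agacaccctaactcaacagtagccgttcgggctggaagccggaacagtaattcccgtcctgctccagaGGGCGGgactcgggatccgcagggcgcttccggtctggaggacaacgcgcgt
The GC box (GGGCGG or CCGCCC) was present in 21 of the 36 proteasome promoters (58.3%), against 64.0% of promoters of genes in the table and 35.4% of all RefSeq promoters. The CCAAT box (CCAAT or ATTGG) was in 12 (33.3%), against 40.6% and 37.5%.

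The antioxidant response element core, TGACNNNGC on either strand, was found in the promoters of 5 of the 36 genes (13.9%), against 14.0% of the table's genes and 11.5% of all promoters. These 5 windows are shown because this is the motif through which Nfe2l1 is known to act; capitals mark the core, which reads GCNNNGTCA where it lies on the opposite strand.
Psmb5 (chr14:54618004-54618072, minus strand): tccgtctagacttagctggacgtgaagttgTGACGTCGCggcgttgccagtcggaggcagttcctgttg
Psmb6 (chr11:70525318-70525356, plus strand): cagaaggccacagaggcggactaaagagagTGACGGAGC
Psmd9 (chr5:123228129-123228189, plus strand): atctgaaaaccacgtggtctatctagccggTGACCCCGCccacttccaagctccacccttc
Psmd12 (chr11:107479278-107479319, plus strand): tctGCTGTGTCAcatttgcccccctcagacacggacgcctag
Psmc6 (chr14:45329574-45329635, plus strand): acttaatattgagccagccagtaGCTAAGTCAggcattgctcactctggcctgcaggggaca
The first 3 belong to genes called higher with monocytes, 3 of the 9 such genes that have a promoter entry. Psmb5 and Psmb6 were called close to the threshold (limma adjusted p = 0.0445 for Psmb5 and 0.0495 for Psmb6). Whether the motif goes with the calls was not tested. Psmd12 and Psmc6 were called in neither comparison, and none of the 4 promoters of the genes higher with TRMs held the core. The Psmd9 window lies before the gene's RefSeq start and begins 58716 bases into the wider span that GENCODE annotates for it. A match describes letters in the window and is not a bound site.

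Of the 14 core genes, 1 was called with TRMs (7.14%, against 10.2% of all genes higher) and 4 with monocytes (28.6%, against 14.7%). The 1 with TRMs was the alpha subunit Psma5 (ENSMUSG00000068749.9, chromosome 3, 108256926 to 108279974, plus strand). Its signal was 143, 127 and 128 with TRMs, 125, 153 and 172 with monocytes and 93.9, 94.7 and 96.9 alone. Every co-culture library lay above every library of cells alone. The log2 fold change was 0.48 ± 0.14 (standard error) with TRMs, adjusted p = 0.0304, and 0.65 ± 0.14 with monocytes, adjusted p = 0.00411. The call with monocytes passed in all 18 alternative settings, and that with TRMs was lost in 7 of 18, with adjusted p between 0.0107 and 0.0904. Exons of Psma5 overlap 1700010K24Rik on the other strand.

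The beta subunits that cut proteins are Psmb5, with chymotrypsin-like activity, Psmb6, with caspase-like activity, and Psmb7, with trypsin-like activity. Psmb5 (ENSMUSG00000022193.7, chromosome 14, 54614119 to 54618022, minus strand) had a signal of 37.6, 34.6 and 34.4 with TRMs, 37.1, 39.3 and 48.8 with monocytes and 29.1, 32.9 and 27.6 alone. Both co-cultures lay above cells alone in every library. Psmb5 passed the threshold with monocytes (log2 fold change 0.48 ± 0.16, adjusted p = 0.0445) but not with TRMs (0.25 ± 0.16, adjusted p = 0.319). Its exons overlap Mir686 on the same strand.

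Psmb6 (ENSMUSG00000018286.6, chromosome 11, 70525367 to 70527858, plus strand) had 131, 118 and 102 with TRMs, 123, 119 and 163 with monocytes and 91.7, 109 and 95.6 alone. Replicate 3 of the TRM co-culture fell among the cells alone, whereas all monocyte libraries lay above them. The log2 fold change was 0.24 ± 0.16 with TRMs, adjusted p = 0.328, and 0.44 ± 0.16 with monocytes, adjusted p = 0.0495. Psmb7 (ENSMUSG00000026750.6, chromosome 2, 38588036 to 38644087, minus strand) had 65.0, 53.5 and 49.9 with TRMs, 51.2, 52.8 and 83.1 with monocytes and 49.8, 57.2 and 47.3 alone. Its groups overlapped in both comparisons, and neither fold change passed (adjusted p = 0.723 with TRMs and 0.376 with monocytes). Exons of Psmb7 overlap Nek6 on the other strand; without a strand-marking kit named in the labels, reads of the pair cannot be told apart.

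Psmb2, a beta subunit without a proteolytic site, had 117, 106 and 108 with TRMs, 123, 120.3 and 169 with monocytes and 92.0, 110.0 and 92.0 alone. Replicate 3 of the monocyte co-culture stood well above its other libraries. It was called with monocytes (log2 fold change 0.48 ± 0.15, adjusted p = 0.0344), while with TRMs the value was 0.18 ± 0.15 (adjusted p = 0.47). Without that library its adjusted p with monocytes was 0.122. The 3 beta calls rested close to the threshold: Psmb5 was lost in 10, Psmb6 in 9 and Psmb2 in 5 of the 18 alternative settings. The 10 core genes not called with monocytes had log2 fold changes between 0.05 and 0.34, and the lowest and highest of the 14 core genes with TRMs were 0.01 (Psma3) and 0.48 (Psma5).

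**Figure D2:**
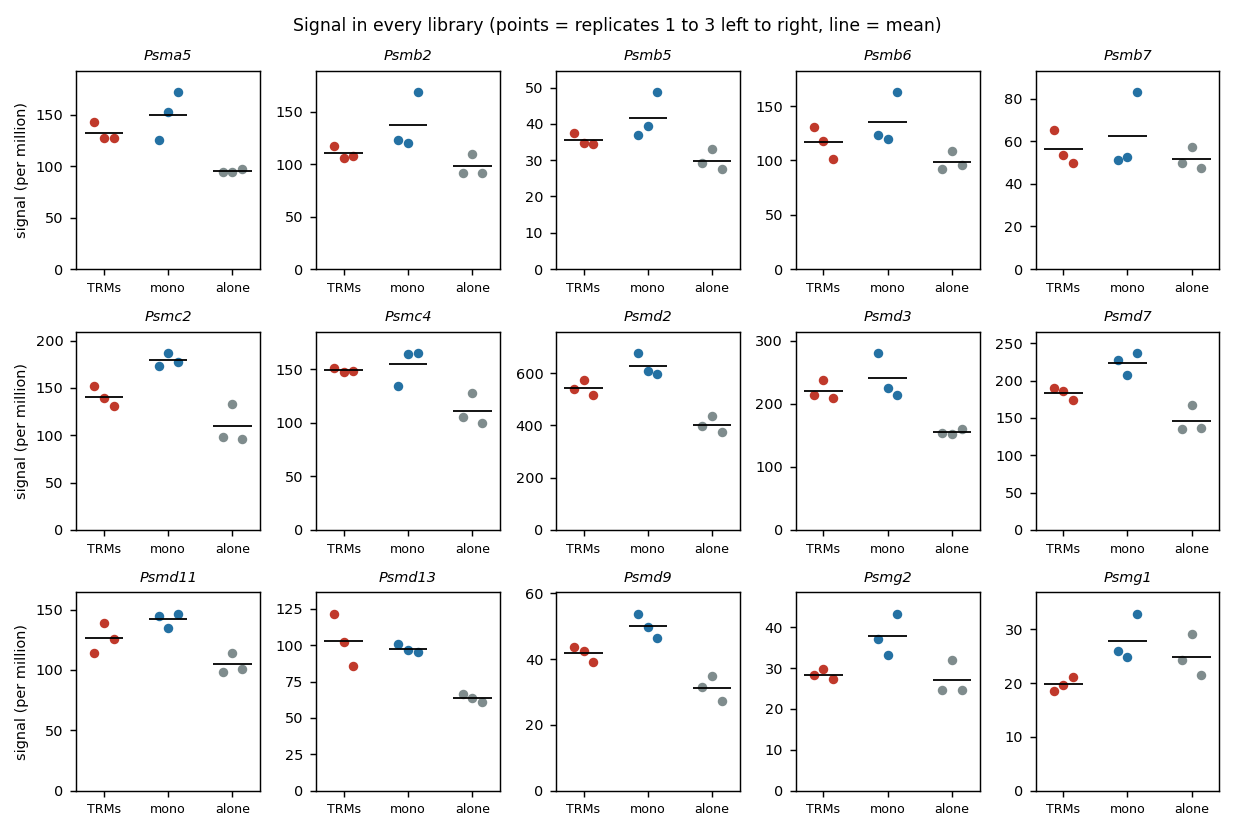
Signal of 15 proteasome genes in every library; points are replicates 1 to 3 from left to right, lines are group means, and every axis starts at 0. Psma5, Psmd2, Psmd3 and Psmd13 show all co-culture points above all points of cells alone, whereas Psmb7 does not. Psmg1 and Psmg2 were added after their values were seen.

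The 19S particle held most of the calls, 4 of 17 with TRMs (median log2 fold change 0.27) and 7 of 17 with monocytes (41.2%, median 0.33), against 10.2% of all genes higher with TRMs and 14.7% with monocytes. Its summed signal was 3224, 3103 and 3057 with TRMs, 3248, 3311 and 3481 with monocytes and 2508, 2736 and 2431 alone. All 6 co-culture sums lay above the 3 of cells alone. Calls fell in both sub-complexes: 2 of 9 base and 2 of 8 lid genes with TRMs, and 3 of 9 base and 4 of 8 lid genes with monocytes.

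Psmd13, a lid subunit (ENSMUSG00000025487.15, chromosome 7, 140881968 to 140898643, plus strand), changed the most of the 43 genes with TRMs and was called in all 18 alternative settings in both comparisons. Its signal was 122, 102 and 85.7 with TRMs, 101, 96.4 and 95.3 with monocytes and 66.3, 63.7 and 60.9 alone. No co-culture library overlapped the cells alone, and the TRM replicates were the more spread. The log2 fold change was 0.68 ± 0.15 with TRMs, adjusted p = 0.0055, and 0.62 ± 0.15 with monocytes, adjusted p = 0.00688. Its exons overlap Sirt3 on the other strand, so its reads may include some of that gene.

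Psmd3, another lid subunit (ENSMUSG00000017221.14, chromosome 11, 98682554 to 98695979, plus strand), had 214, 239 and 209 with TRMs, 281, 226 and 214 with monocytes and 154, 153 and 161 alone. The 6 co-culture libraries all lay above the cells alone, which differed little among themselves. Its log2 fold change was 0.50 ± 0.13 with TRMs, adjusted p = 0.0191, and 0.62 ± 0.13 with monocytes, adjusted p = 0.00418. The TRM call was lost without TRM replicate 2 (adjusted p = 0.0956), without replicate 1 of cells alone (0.0654) and without its replicate 3 (0.0552). The annotated gene Gm12356 overlaps exons of Psmd3 on the other strand.

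Psmd2 is the large base subunit that serves as a docking scaffold for ubiquitin shuttles (ENSMUSG00000006998.16, chromosome 16, 20651652 to 20663414, plus strand). It had the highest signal per library of the 43 genes, at 538, 575 and 517 with TRMs, 679, 609.8 and 596 with monocytes and 397, 435 and 374 alone. Co-culture libraries stood apart from the cells alone in both cases, and all monocyte libraries also lay above the TRM libraries. The log2 fold change was 0.44 ± 0.12 with TRMs, adjusted p = 0.0262, and 0.64 ± 0.12 with monocytes, adjusted p = 0.002. The TRM call was lost in 6 of 18 alternative settings, with adjusted p up to 0.121, and the monocyte call in none.

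Psmc2, an ATPase of the base (ENSMUSG00000028932.7, chromosome 5, 21785283 to 21803787, plus strand), showed the largest fitted change with monocytes. Its signal was 152, 139.8 and 131 with TRMs, 173, 187 and 177 with monocytes and 98.3, 133 and 96.1 alone. Replicate 2 of the cells alone lay within the TRM range but below all monocyte libraries. The log2 fold change was 0.73 ± 0.15 with monocytes, adjusted p = 0.00253, and 0.38 ± 0.15 with TRMs, adjusted p = 0.089. Psmd7, the lid partner of the deubiquitinase Psmd14 (ENSMUSG00000039067.5, chromosome 8, 107580381 to 107588464, minus strand), had 191, 186 and 174 with TRMs, 228, 207 and 237 with monocytes and 136, 167 and 136 alone. Both co-cultures lay above the cells alone, with the monocyte libraries the highest. Psmd7 was called with monocytes (log2 fold change 0.62 ± 0.13, adjusted p = 0.00342), and its TRM value was 0.33 ± 0.13 (adjusted p = 0.0949). That these genes passed with monocytes and not with TRMs does not show that the co-cultures differ, which is tested further on.

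The ATPase Psmc4 had 152, 147 and 149 with TRMs, 135, 165 and 166 with monocytes and 106, 128 and 100.1 alone, with no co-culture library among the cells alone. It was called in both comparisons (adjusted p = 0.0471 with TRMs and 0.021 with monocytes), but edgeR gave 0.0544 with TRMs and 8 of 18 settings lost that call. The lid subunit Psmd11 averaged 126 ± 12.3 with TRMs, 142 ± 6.25 with monocytes and 105 ± 8.61 alone (SD, n = 3), and was called with monocytes (adjusted p = 0.0215). Of the 19S genes, 13 of 17 did not pass with TRMs and 10 of 17 with monocytes. The ATPase Psmc6 had 122, 99.8 and 142 with TRMs, 81.5, 119.8 and 127 with monocytes and 119, 133 and 114 alone, and was the 1 gene of the 17 with a fitted value below 0 in both comparisons (-0.02 with TRMs and -0.18 with monocytes; adjusted p = 0.955 with TRMs and 0.491 with monocytes). Psmd14, the lid deubiquitinase, averaged 126 ± 6.04 with TRMs, 124 ± 16.7 with monocytes and 110.3 ± 5.42 alone, and did not pass (adjusted p = 0.357 with TRMs and 0.396 with monocytes). Psmc6 and Psmd14 were chosen after their values were seen.

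Of the 7 assembly factors, none was called with TRMs and 1 (14.3%) with monocytes, against 10.2% and 14.7% of all genes called higher. The count with monocytes stood near the background. The 1 called was Psmd9, a chaperone of the 19S base (ENSMUSG00000029440.15, chromosome 5, 123169413 to 123250131, plus strand). Psmd9 had 43.7, 42.4 and 39.0 with TRMs, 53.8, 49.6 and 46.4 with monocytes and 31.7, 34.8 and 27.3 alone. The 3 groups did not overlap, in the order monocytes, TRMs, alone. Its log2 fold change was 0.68 ± 0.15 with monocytes, adjusted p = 0.00546, and 0.42 ± 0.15 with TRMs, adjusted p = 0.0752.

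The other 2 chaperones of the base, Psmd5 and Psmd10, had fitted log2 values between 0.05 and 0.06 in both comparisons. Psmg1 and Psmg2, which pair to guide the alpha ring, were chosen after their values were seen. Psmg1 had 18.6, 19.6 and 21.2 with TRMs, 25.9, 24.9 and 32.9 with monocytes and 24.2, 29.1 and 21.5 alone. All TRM libraries lay below all others, with a log2 difference from cells alone of -0.32 ± 0.19 that did not pass (adjusted p = 0.263). Psmg2 had 28.3, 29.7 and 27.3 with TRMs, 37.2, 33.3 and 43.3 with monocytes and 24.6, 31.9 and 24.5 alone. Its value with monocytes, 0.49 ± 0.17, lay just outside the threshold in limma (adjusted p = 0.0502) and was called by edgeR. With TRMs the median of the assembly factors was 0.05, and -0.03 when libraries were scaled by their totals.

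None of the 4 activators, nor the inhibitor, was called in either comparison, against 18.4% of all genes called with TRMs and 27.3% with monocytes. The median log2 fold change was -0.02 with TRMs and -0.05 with monocytes. Psme1 and Psme2 form the interferon-inducible cap of the core and Psme3 its nuclear counterpart. Psme1 averaged 65.3 ± 4.12 with TRMs, 63.0 ± 12.6 with monocytes and 63.7 ± 4.70 alone (SD, n = 3). Psme4, an activator linked to histone degradation, had 73.9, 84.3 and 101 with TRMs, 80.5, 82.9 and 73.7 with monocytes and 95.7, 104 and 97.0 alone. The monocyte libraries lay below the cells alone, with a log2 value of -0.33 ± 0.14 that did not pass (adjusted p = 0.109). Psmf1, an inhibitor of the isolated core, averaged 52.5 ± 4.30 with TRMs, 51.3 ± 10.1 with monocytes and 53.3 ± 6.82 alone. Psme1 exons overlap Emc9 on the other strand. Psme1, Psme4 and Psmf1 were chosen after their values were seen.

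Levels per kb of exon in cells alone, which allow genes to be set beside each other, ran over similar ranges in the core and the 19S particle. Core genes had 24.2 (Psma3) to 138 (Psmb4) signal per kb with a median of 81.1, and 19S genes had 32.0 (Psmd13) to 136 (Psmd2) with a median of 71.4. Assembly factors were lower, from 8.94 (Psmg4) to 32.8 (Psmd5) with a median of 20.7 per kb. The activators and the inhibitor ran from 13.4 (Psmf1) to 68.7 (Psme3) per kb. Exon length was the union of annotated exons, so a gene with rarely used long exons is set too low on this scale.

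**Figure D3:**
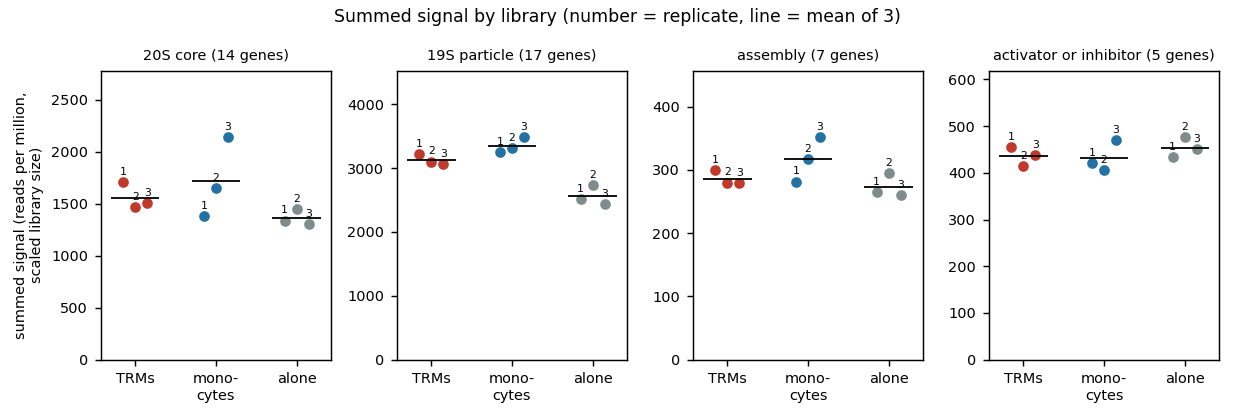
Summed signal of each class in every library; numbers beside points are replicates, lines are means of 3, and axes start at 0. The 19S sums of both co-cultures (3057 to 3481) lie above those of cells alone (2431 to 2736), while the 20S sum of replicate 3 of the monocyte co-culture (2138) stands above every other library.

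In each co-culture 1 library was the highest for every 20S gene. The summed signal of the core was 1710, 1464 and 1504 with TRMs, 1381, 1650 and 2138 with monocytes and 1337, 1448 and 1303 alone. Replicate 3 of the monocyte co-culture was the highest of the 9 libraries for all 14 core genes, against 13.8% of all genes. Within the TRM co-culture replicate 1 was highest for all 14, against 39.6% of all genes. The same library was highest for 6 of the 17 genes of the 19S particle in the first case and, within the TRM co-culture, for 10 of 17. The ratio of the highest to the lowest monocyte library had a median of 1.43 over core genes and 1.15 over 19S genes, against 1.46 over all genes. In cells alone the highest library was replicate 2 for 9 core genes, replicate 1 for 4 and replicate 3 for 1, while replicate 2 was highest for 13 of the 17 genes of the 19S particle. These genes are not independent of one another, and the counts are a description of the libraries.

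Without replicate 3 of the monocyte co-culture, 8 of the 43 genes were higher with monocytes than alone, against 15% of all genes: 1 of the core (Psma5), 6 of the 19S particle and Psmd9. The median log2 fold change of all 43 was then 0.10, that of the core 0.09 and that of the 19S particle 0.31, against 0.28, 0.30 and 0.33 with all libraries. Without replicate 1 of the monocyte co-culture, 16 genes were higher (against 12.1% of all genes), 7 of them in the core, with a core median of 0.46. The core over 19S ratio of summed signal was 0.530, 0.472 and 0.492 with TRMs, 0.425, 0.498 and 0.614 with monocytes and 0.533, 0.529 and 0.536 alone. It thus ran over a wide range in the monocyte co-culture, on both sides of the narrow range of cells alone. The summed epithelial markers of the monocyte libraries were 10431, 11585 and 16404, and the share of mitochondrial reads was 0.288%, 0.481% and 0.580%, each in the same order of replicates as the core sum. In the TRM co-culture the replicate with the highest core sum also had the highest epithelial sum (19092) and mitochondrial share (0.622%). In cells alone the library with the highest core sum, replicate 2, had the lowest epithelial sum (15159). The part of these differences in the proteasome values was not tested.

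**Figure D4:**
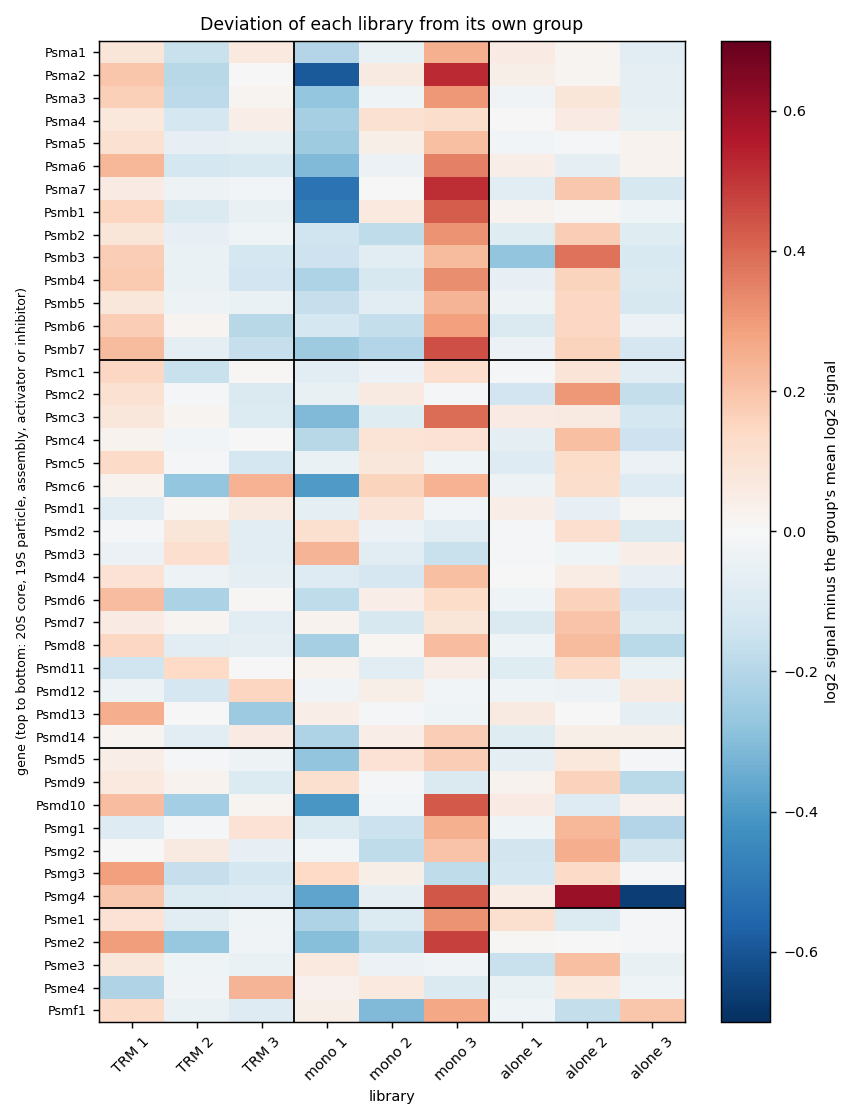
Each of the 43 proteasome genes (rows, grouped by class) in each library (columns), as log2 signal minus the mean log2 signal of its own group. The 20S rows are red in replicate 3 and mostly blue in replicate 1 of the monocyte co-culture, a contrast less regular among 19S rows.

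Between the co-cultures, none of the 43 genes was called in limma, against 0.325% of all genes called higher with TRMs, 0.0730% called lower and 0.398% in either direction. At an unadjusted p under 0.05, 0 were higher and 4 lower with TRMs than with monocytes, against 6.22% and 5.44% of all genes, and edgeR called 0 in either direction. The lowest adjusted p was 0.318, for Psmg1, at 18.6, 19.6 and 21.2 with TRMs and 25.9, 24.9 and 32.9 with monocytes (log2 difference -0.49 ± 0.19). The other 3 were Psmg2 at -0.41 ± 0.17, Psmc2 at -0.35 ± 0.15 and Psmd7 at -0.29 ± 0.13. The median log2 difference of the 43 genes, TRMs minus monocytes, was -0.08, and it was 0.05 without replicate 3 of the monocyte co-culture. Every fitted core value was lower with TRMs (-0.30 to -0.01), and without that library the core median was 0.08. Libraries did not overlap for 8 genes that were lower with TRMs (against 8.62% of all genes) and for none that was higher (7.55% of all genes). A p that misses the threshold does not show that the co-cultures act alike, and the standard errors of these 4 differences were 0.13 to 0.19.

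Genes that act on or with the proteasome were read from 3 lists. Of 11 proteasome-linked genes, 1 was higher and 1 lower with TRMs, and 3 were higher and 1 lower with monocytes. Of all genes, 10.2% were higher and 8.15% lower with TRMs, and 14.7% higher and 12.7% lower with monocytes, so the TRM counts stood near the background. Pomp, the chaperone that brings beta subunits into the core, had 78.1, 64.9 and 66.3 with TRMs, 94.1, 81.8 and 103 with monocytes and 47.0, 55.5 and 55.7 alone. It was higher with monocytes (log2 fold change 0.81 ± 0.15, adjusted p = 0.00138), and with TRMs the value was 0.40 ± 0.15 (adjusted p = 0.0763). All 3 groups were separate in the order monocytes, TRMs, alone.

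Usp14, a deubiquitinase bound to the 19S particle, had 167, 188 and 207 with TRMs, 198, 231 and 195 with monocytes and 124, 145 and 136 alone. It was higher in each comparison (adjusted p = 0.0266 with TRMs and 0.00392 with monocytes). Ube3c, a ubiquitin ligase of the proteasome, had 125, 185 and 165 with TRMs, 203, 236 and 186 with monocytes and 135, 149.9 and 160.2 alone, and was called with monocytes (adjusted p = 0.0366). Zfand5, a zinc finger protein that binds the proteasome and stimulates it, fell in both: 550.2, 566 and 687 with TRMs, 431, 609.9 and 506 with monocytes and 922, 966 and 1113 alone. Its log2 fold change was -0.74 ± 0.16 with TRMs, adjusted p = 0.00526, and -0.97 ± 0.16 with monocytes, adjusted p = 0.00062, and no alternative setting lost either call.

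The list of 6 genes for Nfe2l1 control held Nfe2l1, genes that act on it and its relatives Nfe2l2 and Nfe2l3. With TRMs 1 was higher and 1 lower, and with monocytes 2 were higher and 1 lower. The shares of all genes were 10.2% higher and 8.15% lower with TRMs, and 14.7% and 12.7% with monocytes. The relatives Nfe2l3 and Nfe2l2 made both calls with TRMs, and with monocytes Vcp was called as well. Nfe2l1 itself had 205, 278 and 257 with TRMs, 247, 277 and 209.9 with monocytes and 191, 229 and 204 alone, with overlapping libraries and no call (adjusted p = 0.315 with TRMs and 0.29 with monocytes). Nfe2l1 is controlled largely at the protein level, which was not measured. Its relative Nfe2l3 had 90.1, 75.8 and 82.6 with TRMs, 84.8, 67.4 and 65.0 with monocytes and 60.3, 43.5 and 45.6 alone, and was higher in each comparison (adjusted p = 0.0072 with TRMs and 0.0268 with monocytes). Nfe2l2 (NRF2), the regulator of antioxidant genes, had 189.7, 175 and 211 with TRMs, 181, 190.5 and 198 with monocytes and 299.9, 288 and 294 alone. It fell with both, with a log2 fold change of -0.62 ± 0.12 with TRMs and -0.63 ± 0.12 with monocytes (adjusted p = 0.00317 with TRMs and 0.00193 with monocytes).

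Vcp, the ATPase that extracts ubiquitinated proteins, had 249, 304 and 269 with TRMs, 318, 289 and 282 with monocytes and 209, 211 and 215 alone. It was called with monocytes (adjusted p = 0.0105) and lay outside the threshold with TRMs (0.0541). Of 16 genes of ubiquitin supply and delivery, 1 was higher in each comparison and none lower; 6.25% lies below the 10.2% of all genes higher with TRMs and the 14.7% with monocytes. That gene was Uba1, the main ubiquitin-activating enzyme, with 498, 627 and 503 with TRMs, 589, 531 and 494 with monocytes and 348, 374 and 360.4 alone (adjusted p = 0.00858 with TRMs and 0.0065 with monocytes). Calls of these lists that some settings lost were Usp14 with TRMs (5 of 18), Uba1 with TRMs (1 of 18), Ube3c with monocytes (5 of 18) and Nfe2l3 with monocytes (3 of 18). No gene of the 3 lists was called between the co-cultures.

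**Figure D5:**
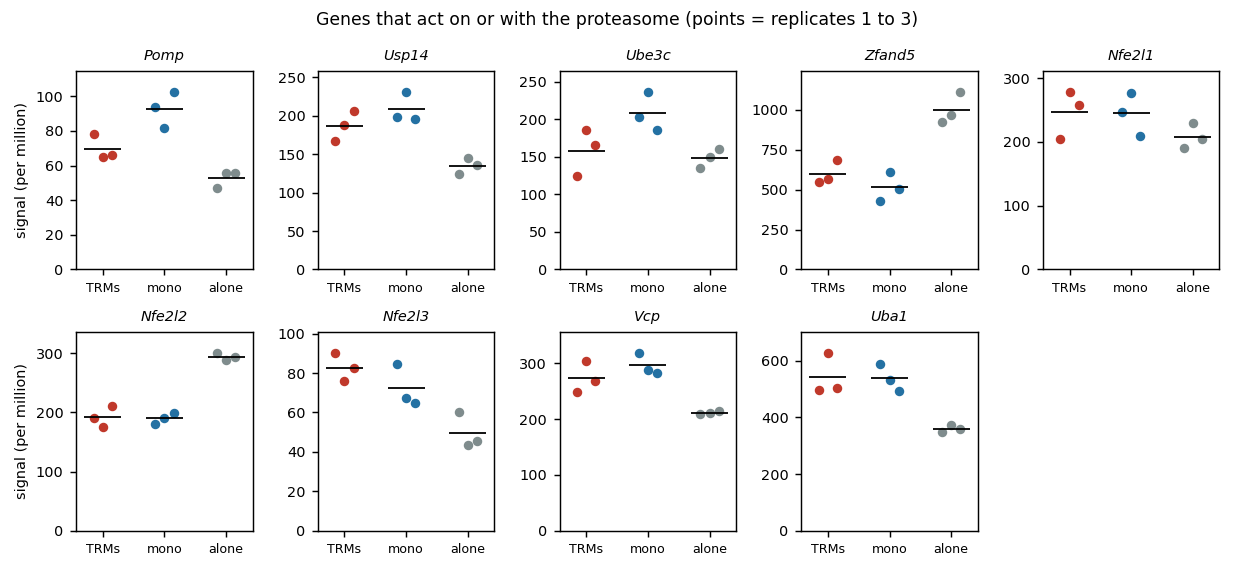
Signal of 9 genes that act on or with the proteasome in every library; points are replicates 1 to 3, lines are means, and axes start at 0. Zfand5 and Nfe2l2 are lower in both co-cultures than alone, Uba1 and Usp14 are higher, and the Nfe2l1 points overlap.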

How the data were processed

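Tumour cells sorted from spheroids were profiled by RNA sequencing (SMART-Seq v4 cDNA from 1 ng of RNA, Illumina NextSeq) in 9 libraries, 3 per group, with groups taken from the labels. Reads were processed with STAR 2.5 and edgeR on mm10, per the submitters' processing notes; the method of counting genes is not given in the sources used here. In brief, the authors' deposited table holds a signal per gene: a whole number of reads plus 0.5, divided by a scaled library size, as CPM. Whole reads were recovered from all 111051 values (tolerance 1e-06 of a read). The authors' deposited tables hold log2 fold changes and mean levels, a likelihood ratio score, and p-values with false discovery rates, per the file headers; only log2 fold changes and false discovery rates were used.

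Log2 signal was tested with limma 3.58.1 (R 4.3.3; variance prior following mean level) over all 9 libraries with group means as terms, 6 residual degrees of freedom. A filter on recovered reads (edgeR filterByExpr, minimum count 10, minimum total 15) left 12326 genes. Tests were two-sided with Benjamini-Hochberg adjustment over all genes and a threshold of 0.05, and fold changes understate changes of low genes because of the added 0.5 read. A quasi-likelihood count test was planned for whole counts; since the values are scaled, limma took its place and edgeR 4.0.16, DESeq2 1.42.0 and limma-voom on recovered reads were alternatives. The procedure was run on simulated data whose planted changes were larger than those of the proteasome genes. That run therefore does not bear on calls of this size. Replicate correlations of log2 values over genes were 0.909 to 0.974, and no library copied another.

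The 43 genes, the lists and the tests were chosen with earlier results of these data known. Per-library values were given for the proteolytic subunits, the 3 called genes of smallest p per class and comparison, and called assembly factors. Genes shown from each of the 3 lists were the up to 4 called genes of smallest p per comparison. Psmc4 and Nfe2l1 were given outside these rules, as were the genes named above as chosen after their values were seen. Positions are from GENCODE M21 (GRCm38, the mm10 assembly), where all 43 genes matched 1 entry. Exons of 7 overlap a gene on the other strand and of 3 a gene on the same strand. Promoters are from RefSeq; protein sequences were not used here. No source states that the kit marks strand.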

Additional observations from a re-analysis of the deposited data

How the results depend on the processing

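The 3 comparisons were recomputed with edgeR, DESeq2, limma-voom, log2(value + 1), no filter, a filter of at least 1 in at least 3 libraries, the 2 groups alone, a replicate block, scaling by library totals and each of the 9 libraries left out. No proteasome gene was called lower than alone under any of these, and none was called between the co-cultures. Scaling by library totals left 2 of 43 genes higher with TRMs (Psmd3 and Psmd13), against 8.14% of all genes, and 9 with monocytes, against 13%. It turned the split of all genes to 1003 higher and 1302 lower with TRMs and 1603 and 1758 with monocytes. The median of all genes shifted by -0.09 with TRMs and -0.05 with monocytes. For the 43 genes the median log2 fold change was then 0.09 with TRMs (28 above 0) and 0.23 with monocytes (37 above 0). The count of all genes called between the co-cultures was 49, and 329 with DESeq2, 86 with limma-voom, 75 with log2(value + 1) and 79 with the replicate block; the cause was not tested. Leaving out 1 library gave 1217 to 2594 genes called with TRMs, 2240 to 3530 with monocytes and 0 to 134 between the co-cultures; 1 to 6 proteasome genes higher with TRMs and 7 to 16 with monocytes; and a median over the 43 genes of 0.15 to 0.22 with TRMs, 0.10 to 0.37 with monocytes and -0.19 to 0.05 between the co-cultures, the last above 0 without monocyte replicate 3. Correlations of deviations between same-numbered libraries of different groups ran from -0.0297 to 0.4348. Differently numbered libraries were not set beside them, so these values cannot decide whether libraries pair by number. With the replicate block 5 proteasome genes were higher with TRMs and 10 with monocytes. Psmb5 (adjusted p = 0.0588) and Psmb6 (0.0615) were the calls lost with monocytes. Each library had 16001895 reads or more, and 3 libraries a group limit the precision of every fold.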

Other observations

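Values of the rows left out above follow. Of the immunoproteasome subunits, Psmb9 lay at 0.0884 to 0.509 with TRMs, 0.027 to 0.694 with monocytes and 0.586 to 1.09 alone. These values rest on few reads: 3, 1 and 12 with TRMs, 0, 5 and 16 with monocytes, and 24, 17 and 19 alone. Psmb10 lay at 15.5 to 18.4 with TRMs, 15.4 to 24.3 with monocytes and 15.6 to 19.4 alone. Psmb8 had no row in the deposited expression table. The recombination factor Psmc3ip lay at 2.56 to 3.64 with TRMs, 2.89 to 4.90 with monocytes and 1.55 to 4.82 alone, and Psme2b at 1.09 to 2.16 with TRMs, 0.946 to 4.48 with monocytes and 1.38 to 3.28 alone. Neither Psmc3ip nor Psme2b was called in any comparison with limma.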
